A study of Arabidopsis thaliana with 72 samples.

Results

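The 48 genes described here encode, in the nucleus, the light-harvesting antenna, the photosystem subunits and the carbon fixation enzymes of the chloroplast of Arabidopsis thaliana. They were taken as a fixed list of 4 LHCA genes, 14 LHCB genes, 12 photosystem I subunits (PSA), 9 photosystem II subunits (PSB), the 4 RBCS genes and 5 further carbon fixation genes (RCA, PRK, GAPA, GAPB and CA1). They are 48 of the 27206 loci in the count table, and all 48 passed the filter on low counts. Their counts made up 8.18% to 19% of all gene counts of a library, with a median of 12.7%.

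RNA was sequenced from whole seedlings, shoots and roots together, in 12 groups that combine genotype, phosphate supply and treatment. Seedlings were either of wild type (Col-0) or of the double mutant phr1 phl1, in which PHR1 and PHL1, MYB factors that switch on phosphate starvation genes, are both mutated. All groups shared a first 7 days on a Johnson medium that held 1% sucrose and 1 mM phosphate, and a day of 9 h light. Seedlings were then moved for 12 days to plates with 1 mM phosphate (high Pi) or about 5 µM (low Pi), sucrose being kept at 1%. During those 12 days the medium held nothing further (untreated), 10 µM methyl jasmonate (MeJA), a form of the defence hormone jasmonate, or flg22 at 1 µM, a flagellin peptide that plant immune receptors detect. Each group had 6 biological replicates, 3 from each of 2 independent experiments, A and B.

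Replicate B1 of the untreated phr1 phl1 group at high Pi did not look like its label and was left out of every value below unless named. PHR1 stood at 68.6 CPM in it (counts per 1000000 counts of the TMM-scaled library), at 49 to 74 in Col-0 and at 12.9 to 44.5 in the remaining mutant libraries. PHL1 stood at 20.3 CPM in it, at 6.59 to 20.3 in Col-0 and at 30.9 to 127 in the other mutant libraries. VSP2, a storage protein gene induced by jasmonate, stood at 211 CPM in it, against 185 to 907 in the MeJA libraries and at most 8.51 in the rest. The remaining 71 libraries held 692426 to 6883818 counts, with a median of 3789735, and none of the Col-0 libraries with MeJA at high Pi exceeded 2403150.

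LHCA and LHCB proteins bind chlorophyll and pass light energy to photosystem I and photosystem II. The photosystems drive electron transport, and its products feed the Calvin cycle, in which Rubisco (large subunit from the plastid genome, small subunit from the RBCS genes) fixes carbon dioxide. These transcripts are abundant in leaves and low in roots, and light, sugars, the circadian clock and chloroplast signals are known to regulate them. Since whole seedlings were sampled, fewer green cells and less RNA per green cell cannot be told apart.

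The 250 bases before the annotated transcript starts were read for all 48 genes from RefSeq's TAIR10.1 assembly and searched on both strands for 6 short motifs. The 7 windows below belong to genes with some of the clearest changes: 4 that were higher at low Pi and 3 that were lower at low Pi or under MeJA. Capitals mark the G-box CACGTG, the ACGT core of the G-box family (which lies inside every CACGTG) and the I-box GATAAG or its complement CTTATC. The windows are chr2:14524357-14524606 (plus strand) for LHCB1.4, chr2:14523569-14523818 (minus strand) for LHCB1.5, chr3:2717307-2717556 (plus) for LHCB4.2, chr1:754263-754512 (minus) for PSAD2, chr5:15385321-15385570 (minus) for RBCS1B, chr5:15382072-15382321 (minus) for RBCS2B and chr1:16127103-16127352 (plus) for GAPB.
LHCB1.4: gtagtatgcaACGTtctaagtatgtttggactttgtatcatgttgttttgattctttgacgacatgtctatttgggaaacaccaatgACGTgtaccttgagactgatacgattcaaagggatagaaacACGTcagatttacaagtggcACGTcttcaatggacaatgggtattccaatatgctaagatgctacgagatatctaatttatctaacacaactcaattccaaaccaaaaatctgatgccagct
LHCB1.5: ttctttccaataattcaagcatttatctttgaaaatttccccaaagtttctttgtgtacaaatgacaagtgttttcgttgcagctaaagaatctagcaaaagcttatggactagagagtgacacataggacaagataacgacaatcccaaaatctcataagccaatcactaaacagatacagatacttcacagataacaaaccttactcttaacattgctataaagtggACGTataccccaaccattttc
LHCB4.2: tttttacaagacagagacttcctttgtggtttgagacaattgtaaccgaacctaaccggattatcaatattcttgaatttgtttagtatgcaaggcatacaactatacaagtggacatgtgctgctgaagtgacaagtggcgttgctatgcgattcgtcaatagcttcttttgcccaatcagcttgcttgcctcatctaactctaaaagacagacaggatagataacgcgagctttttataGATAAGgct
PSAD2: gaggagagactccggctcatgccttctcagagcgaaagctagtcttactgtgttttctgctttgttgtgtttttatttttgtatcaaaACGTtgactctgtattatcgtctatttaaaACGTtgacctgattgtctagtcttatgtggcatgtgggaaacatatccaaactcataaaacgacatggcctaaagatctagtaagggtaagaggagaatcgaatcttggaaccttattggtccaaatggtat
RBCS1B: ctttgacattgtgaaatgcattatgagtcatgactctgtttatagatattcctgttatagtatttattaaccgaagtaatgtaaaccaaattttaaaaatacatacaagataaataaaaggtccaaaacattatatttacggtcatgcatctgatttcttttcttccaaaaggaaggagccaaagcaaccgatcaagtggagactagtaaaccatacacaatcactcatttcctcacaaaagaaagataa
RBCS2B: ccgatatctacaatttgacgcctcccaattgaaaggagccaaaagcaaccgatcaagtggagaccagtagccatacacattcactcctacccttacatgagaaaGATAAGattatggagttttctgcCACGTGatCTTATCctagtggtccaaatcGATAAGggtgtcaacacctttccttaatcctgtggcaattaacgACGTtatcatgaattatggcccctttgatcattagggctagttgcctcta
GAPB: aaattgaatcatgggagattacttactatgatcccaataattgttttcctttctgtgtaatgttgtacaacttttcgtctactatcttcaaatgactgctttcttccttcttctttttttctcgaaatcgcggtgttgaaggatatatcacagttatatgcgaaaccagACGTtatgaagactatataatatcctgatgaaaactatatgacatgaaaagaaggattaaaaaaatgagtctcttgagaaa

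LHCB1.4 (AT2G34430) and LHCB1.5 (AT2G34420) are divergent neighbours on chromosome 2 whose starts face each other, and the LHCB1.4 window held 4 ACGT cores. RBCS1B (AT5G38430), RBCS2B (AT5G38420) and RBCS3B (AT5G38410) lie in tandem on the minus strand of chromosome 5. The RBCS2B window held 3 I-boxes and 1 G-box and the RBCS1B window neither, although their coding sequences are 97.3% identical. The RBCS1B window lies before a RefSeq transcript of 1894 bases, over 3 times the coding length of 546, so it may not be the region next to the start used in these seedlings. Across the 48 genes the G-box was present in 10 windows (20.8%, against 6.58% of all 26709 gene windows of the same length) and the I-box in 11 (22.9%, against 12.2%). The ACGT core was present in 23 (47.9%, against 44.2%), the GT1 core GGTTAA in 9 (18.8%, against 14.7%) and the evening element core AATATCT in 5 (10.4%, against 10.1%). P1BS, GNATATNC, the site that PHR1 is known to bind, was present in 1 of the 48 windows, that of PSBR (2.1%, against 5.44%). These matches are descriptions of letters in a window, not of binding.

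The level of these genes spanned more than 3 orders of magnitude. Per kilobase of transcript, the mean over the 71 libraries was highest for LHCB1.3 (AT1G29930), a main antenna protein of photosystem II, at 14886 CPM per kb, followed by RBCS1A (AT1G67090) at 10423, LHCB1.5 at 5372 and LHCB1.1 at 5250. RCA (AT2G39730), which encodes Rubisco activase, stood at 3915 and LHCA4 at 3617 CPM per kb. At the other end, LHCB4.3 (AT2G40100), a minor antenna gene, stood at 8.03 CPM per kb, and PSAH1 was next lowest at 260. LHCB1.3 alone took 1.07% to 3.42% of all gene counts of a library. Close paralogs share long identical stretches (LHCB1.1 to LHCB1.3 are 95.6% to 96.4% identical in coding sequence, LHCB2.1 and LHCB2.2 92.9%, RBCS1B, RBCS2B and RBCS3B 96.7% to 97.3%), so reads may have been split between them. Values of summed paralogs are given for some comparisons, not for each change of these genes.

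In untreated Col-0, low phosphate was accompanied by higher antenna transcripts and lower transcripts of a few carbon fixation genes, and the 2 classes moved apart. The 18 antenna genes together took 5.91% to 8.39% of all counts at high Pi (median 6.27%) and 7.04% to 11.1% at low Pi (median 8.84%), so the groups overlapped. The 9 carbon fixation genes together took 3.96% to 4.74% at high Pi (median 4.33%) and 3.09% to 4.33% at low Pi (median 3.51%). The ratio of antenna to carbon fixation counts was 1.54 ± 0.212 at high Pi and 2.5 ± 0.417 at low Pi (mean ± SD, n = 6 each). Each low Pi library lay above each high Pi library, but narrowly in experiment B, at 1.93 for low Pi B2 and 1.92 for high Pi B1. The means went from 1.44 to 2.73 in experiment A and from 1.63 to 2.27 in experiment B.

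**Figure D1:**
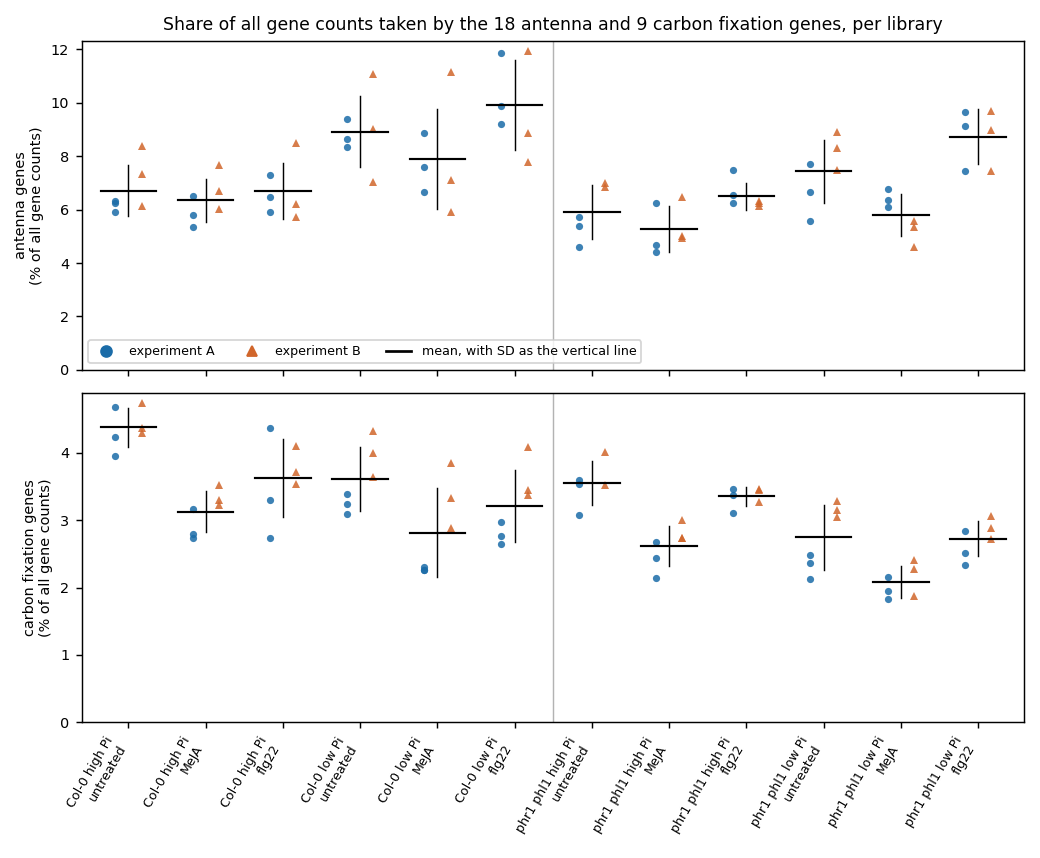
Share of all gene counts (%) taken by the 18 antenna genes (top) and the 9 carbon fixation genes (bottom), 1 point per library, with mean and SD per group. The antenna mean was 6.72% in Col-0 high Pi untreated and 8.93% in Col-0 low Pi untreated, while the carbon fixation mean was 4.38% and 3.61%.

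At the adjusted p threshold of 0.05 (edgeR quasi-likelihood test, adjusted over all 18693 genes tested, as for every adjusted p below unless another tool is named), 14 of the 48 genes rose and 3 fell at low Pi in untreated Col-0. Of all genes tested, 15.5% passed in this comparison, 7.07% upwards and 8.46% downwards. The members' median log2 change was 0.20, and that of all genes lay within 0.03 of 0 in this and every other comparison. The 14 that rose were 3 of 4 LHCA genes, 8 of 14 LHCB genes, 2 of 12 photosystem I genes and 1 of 9 photosystem II genes. The 3 that fell were RBCS1B, GAPB and LHCB4.3. Without the libraries numbered A3 in all groups, 11 passed instead of 17. In experiment B alone RBCS1B was the only member that passed, so none of the rises did. Of all genes, 33.8% passed in experiment A alone and 0.559% in B alone.

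LHCB1.4, which encodes a protein of the main trimeric antenna of photosystem II, stood at 1716 to 3567 CPM at high Pi (median 2228) and at 3195 to 6528 at low Pi (median 4527). Only the highest high Pi and the lowest low Pi libraries overlapped, and it rose by 0.98 ± 0.25 on the log2 scale (± SE here and below, adjusted p = 0.0048). Its neighbour LHCB1.5 stood at 3855 to 4830 CPM (median 4247) and 4658 to 9380 (median 7567), a rise of 0.77 ± 0.15 (adjusted p = 1.2e-04). LHCB1.4 and LHCB1.5 together made up 19% of the counts of the 5 LHCB1 genes at high Pi and 26.5% at low Pi (group means). LHCB1.2 rose by 0.57 ± 0.15, but the sum of LHCB1.1, LHCB1.2 and LHCB1.3, which are hard to separate, changed by 0.25 with an adjusted p of 0.37. LHCB1.3 itself stood at 14958 to 27024 CPM (median 16249) and 16647 to 33870 (median 17397), and its change of 0.18 ± 0.19 did not pass (adjusted p = 0.58).

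LHCB2 proteins pair with LHCB1 in the trimers and are known to be phosphorylated when the antenna moves between photosystems. LHCB2.1 (AT2G05100) stood at 1286 to 2111 CPM (median 1851) and 1712 to 3039 (median 2607), overlapping ranges, and rose by 0.43 ± 0.15 (adjusted p = 0.036). LHCB2.2 rose by 0.57 ± 0.14 and LHCB2.3 by 0.62 ± 0.15, the latter without overlap between the groups. LHCB3 (AT5G54270), the third component of the trimers, stood at 3003 to 4454 CPM (median 3896) and 3747 to 6628 (median 5335), and rose by 0.48 ± 0.16 (adjusted p = 0.028).

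The minor antenna genes LHCB4 encode CP29, which links the trimers to the photosystem II core. LHCB4.2 (AT3G08940) stood at 1299 to 1867 CPM (median 1485) and 1821 to 2844 (median 2605), and rose by 0.71 ± 0.13 (adjusted p = 7.0e-05). LHCB4.3 went the other way. It stood at 15.9 to 28.3 CPM (median 22.6) and 5.56 to 22 (median 12.5), with overlap, and fell by 0.69 on the log2 scale (SE 0.22, adjusted p = 0.022). For LHCB4.1, LHCB5 and LHCB6 the changes were 0.22, 0.18 and 0.28, and none passed.

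Of the photosystem I antenna, LHCA4 rose by 0.57 ± 0.13, LHCA1 by 0.56 ± 0.13 and LHCA3 by 0.40 ± 0.12, whereas LHCA2 changed by 0.25 ± 0.12 (adjusted p = 0.16). LHCA1 (AT3G54890) stood at 2634 to 3567 CPM (median 3070) and 3230 to 5291 (median 4599), which overlap. LHCA4 (AT3G47470) stood at 3519 to 4502 and 4591 to 7531, which do not. In the photosystem I core, PSAD2 (AT1G03130), one of a gene pair for the subunit that docks ferredoxin, stood at 430 to 568 CPM (median 524) and 680 to 1134 (median 899). The groups did not overlap, and PSAD2 rose by 0.79 ± 0.14 (adjusted p = 5.7e-05). Its paralog PSAD1 (AT4G02770) stood at 913 to 1351 (median 1102) and 1137 to 1959 (median 1563) and rose by 0.43 ± 0.12. PSAE2 (AT2G20260), for a neighbouring stromal subunit, stood at 221 to 291 and 225 to 367 CPM, and its change of 0.24 ± 0.13 did not pass, nor did those of the other 9 photosystem I genes.

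In photosystem II, PSBW, a small subunit that stabilises the supercomplex with the antenna, rose by 0.41 ± 0.13 (adjusted p = 0.026). PSBO1 (AT5G66570), the main manganese-stabilising protein, stood at 2895 to 3859 CPM (median 3401) and 3006 to 4065 (median 3729), nearly the same range, with a change of 0.11 ± 0.11. PSBS (AT1G44575), needed for energy-dependent quenching of excess light, stood at 915 to 1795 (median 1290) and 1029 to 1200 (median 1062), a change of -0.25 ± 0.14 that did not pass.

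RBCS1B, one of 4 genes for the Rubisco small subunit, had the largest fall of the 48. It stood at 1165 to 1483 CPM at high Pi (median 1323) and at 270 to 856 at low Pi (median 546), without overlap, and fell by 1.42 on the log2 scale (SE 0.21, adjusted p = 2.4e-06). RBCS1A, which supplies most of the counts, stood at 15205 to 18731 CPM (median 17009) and 12406 to 18755 (median 12874), with a change of -0.25 ± 0.14 (adjusted p = 0.23). For RBCS2B, at 1705 to 2349 (median 1998) and 1333 to 1898 (median 1642), the change was -0.28 ± 0.13, and for RBCS3B, at 2956 to 4284 (median 3419) and 2656 to 3531 (median 2921), it was -0.19 ± 0.14. Neither passed. Summed with RBCS2B and RBCS3B, the change was -0.36 (adjusted p = 0.042). The share of RBCS1B in the counts of the 4 RBCS genes was 5.33% to 5.86% at high Pi and 1.57% to 4.21% at low Pi.

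GAPB (AT1G42970), a subunit of the chloroplast glyceraldehyde-3-phosphate dehydrogenase of the Calvin cycle, stood at 2076 to 2660 CPM (median 2315) and 1177 to 2119 (median 1552), which overlap only at 1 end, and fell by 0.55 on the log2 scale (SE 0.13, adjusted p = 0.0022). Its partner subunit GAPA changed by -0.31 ± 0.11 (adjusted p = 0.052), RCA by -0.32 ± 0.14, CA1 by -0.34 ± 0.15 and PRK by -0.17 ± 0.11, and none of these passed. RCA stood at 9202 to 13220 CPM (median 11706) and 7572 to 12349 (median 8911). CA1 (AT3G01500), a chloroplast carbonic anhydrase, stood at 2048 to 3508 (median 2844) and 1697 to 2945 (median 2155).

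**Figure D2:**
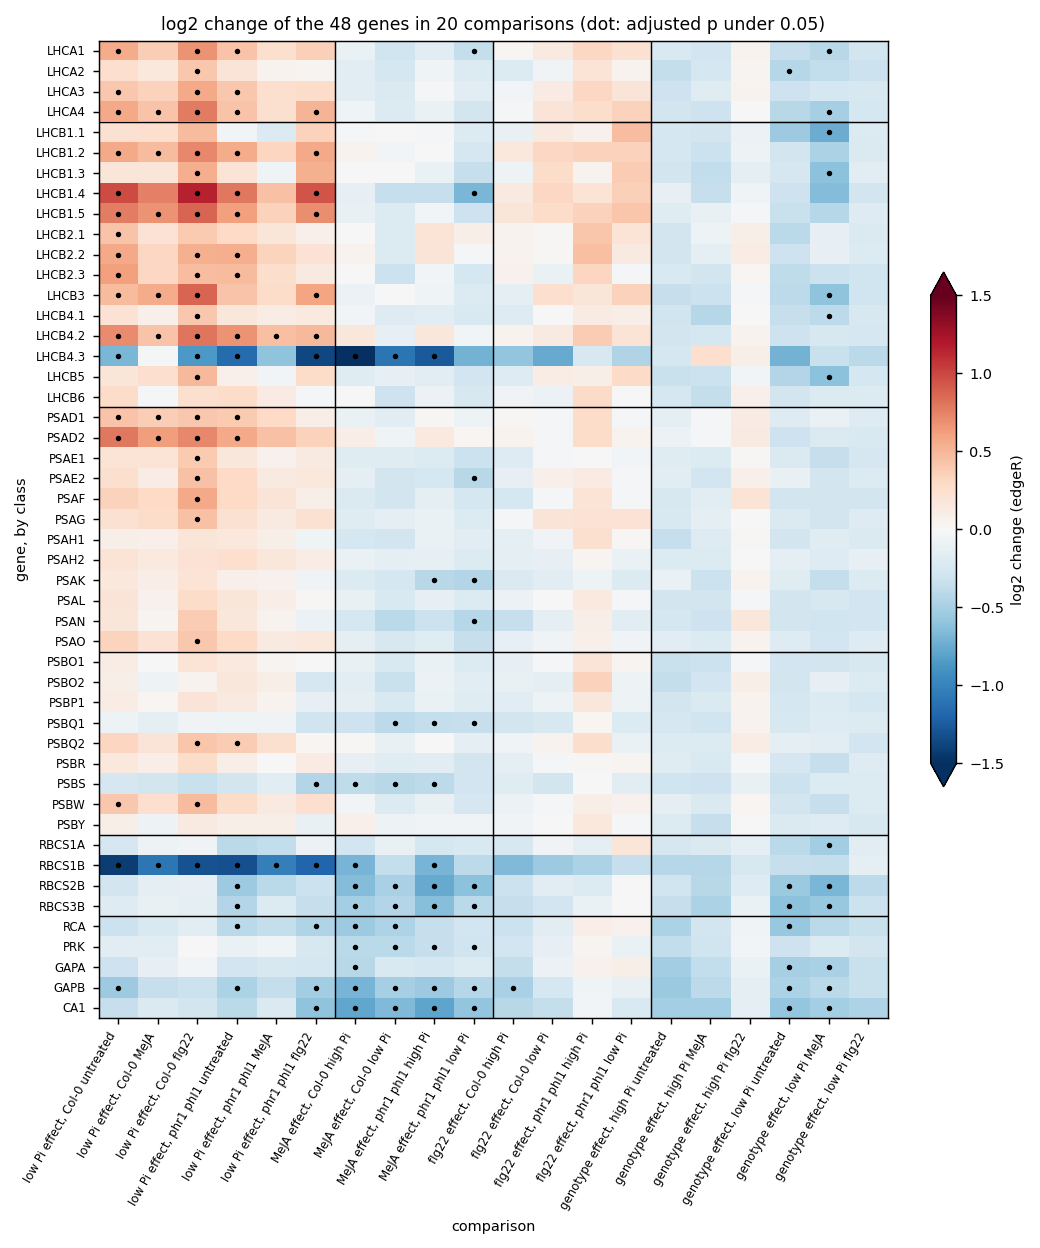
Change on the log2 scale (colour) of the 48 genes (rows, by class) in 20 comparisons (columns), with a dot where the adjusted p was under 0.05. In the 6 low Pi columns the antenna rows are mostly red and the RBCS1B row is blue throughout, and in the 4 MeJA columns the dots lie mostly in the carbon fixation rows.

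The same comparison under flg22 or MeJA, and in the mutant, uses other libraries. In Col-0 with flg22, 23 of the 48 rose and 2 fell at low Pi (background 15%, of which 7.89% rose and 7.16% fell), with a median of 0.39: all 4 LHCA genes, 10 of 14 LHCB genes, 7 of 12 photosystem I genes and 2 of 9 photosystem II genes rose. The largest rises were those of LHCB1.4 (1.15 ± 0.25, adjusted p = 0.0012), LHCB3 (0.87 ± 0.16), LHCB1.5 (0.87 ± 0.15), LHCB4.2 (0.80 ± 0.13) and LHCA4 (0.78 ± 0.14). RBCS1B fell by 1.31 (SE 0.21, adjusted p = 2.3e-05) and LHCB4.3 by 0.86 (SE 0.24, adjusted p = 0.011). Summed with RBCS2B and RBCS3B, the RBCS1B change was -0.25 (adjusted p = 0.19). In experiment A alone 25 passed (background 26%) and in B alone 3 (2.06%). The 25 calls became 12 without the libraries numbered A3 and 14 without those numbered A2.

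In Col-0 with MeJA, 7 rose and 1 fell (background 5.38%, of which 2.65% rose and 2.72% fell), with a median of 0.13. The 5 largest rises were those of LHCB1.5 (0.67 ± 0.15), PSAD2 (0.63 ± 0.14), LHCB3 (0.56 ± 0.16), LHCB1.2 (0.48 ± 0.15) and LHCB4.2 (0.43 ± 0.13), with LHCA4 and PSAD1 the other 2, and RBCS1B fell by 1.08 (SE 0.21, adjusted p = 0.0019). LHCB4.3, at 1.51 to 9.58 CPM at high Pi and 3.63 to 12.1 at low Pi, changed by -0.017 ± 0.32. Summed with its paralogs, as above, the RBCS1B change was -0.22 (adjusted p = 0.32), and that of LHCB1.1 to LHCB1.3 was 0.26 (adjusted p = 0.40). In experiment A alone 9 passed (background 19.7%) and in B alone 0 (0.277%), and the 8 calls became 1, 4, 3 and 4 without the libraries numbered A1, A2, A3 and B2.

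In the untreated phr1 phl1 mutant, 12 rose and 6 fell at low Pi (background 12.3%, of which 6.65% rose and 5.63% fell), with a median of 0.18. The largest rises were again among the antenna and PSAD genes: LHCB1.4 (0.79 ± 0.27), LHCB4.2 (0.67 ± 0.14), LHCB1.5 (0.62 ± 0.15), PSAD2 (0.57 ± 0.15) and LHCB1.2 (0.56 ± 0.16). RBCS1B stood at 805 to 1294 CPM at high Pi (median 884, n = 5) and 222 to 677 at low Pi (median 432, n = 6), without overlap, and fell by 1.32 (SE 0.22, adjusted p = 1.8e-05). LHCB4.3 fell by 1.15, RBCS2B by 0.54, GAPB by 0.47, RBCS3B by 0.44 and RCA by 0.41. In experiment B alone 2 of the 48 passed (background 0.718%), against 16 in A alone (27.6%), and RCA changed by 0.036 in B and -0.72 in A. The sum of LHCB1.1 to LHCB1.3 changed by 0.20 (adjusted p = 0.52). The 18 calls became 5 without the libraries numbered A3 and 7 without those numbered A2, and 9 to 11 without 1 of the 3 experiment A libraries of the untreated mutant at high Pi.

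With flg22, 6 rose and 6 fell in the mutant (background 10.3%, of which 4.75% rose and 5.53% fell). LHCB1.4 (0.94 ± 0.25), LHCB1.5 (0.70 ± 0.14), LHCB3 (0.59 ± 0.16), LHCB1.2 (0.57 ± 0.15), LHCA4 (0.51 ± 0.13) and LHCB4.2 (0.49 ± 0.13) rose. LHCB4.3 fell by 1.36, RBCS1B by 1.19, CA1 by 0.60, GAPB by 0.52, RCA by 0.45 and PSBS by 0.44. With MeJA only LHCB4.2 rose (0.45 ± 0.13) and RBCS1B fell, by 1.02 (background 3.02%, of which 2.12% rose and 0.899% fell), and 1 of these calls was lost without the libraries numbered A1, A2 or A3. Summed with RBCS2B and RBCS3B, the RBCS1B change with MeJA was -0.37 and did not pass (adjusted p = 0.093). With MeJA 6 passed in A alone (background 9.68%) and 1 in B alone (1.55%). With flg22 the 12 calls became 11 in A alone (background 20.3%) and 0 in B alone (0.309%), 5 without the libraries numbered A1 and 6 without A2. Whether the low Pi change differed between the genotypes was tested for untreated seedlings: 0 of the 48 interactions passed by edgeR (background 0.519%) or DESeq2 (0.829%), and 0 at an unadjusted p under 0.05 (7.86%). For LHCB1.4 the difference was -0.19, with 95% bounds of -0.90 and 0.52, and for RBCS1B 0.092, with bounds of -0.49 and 0.67, so differences of that size in either direction remain possible.

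**Figure D3:**
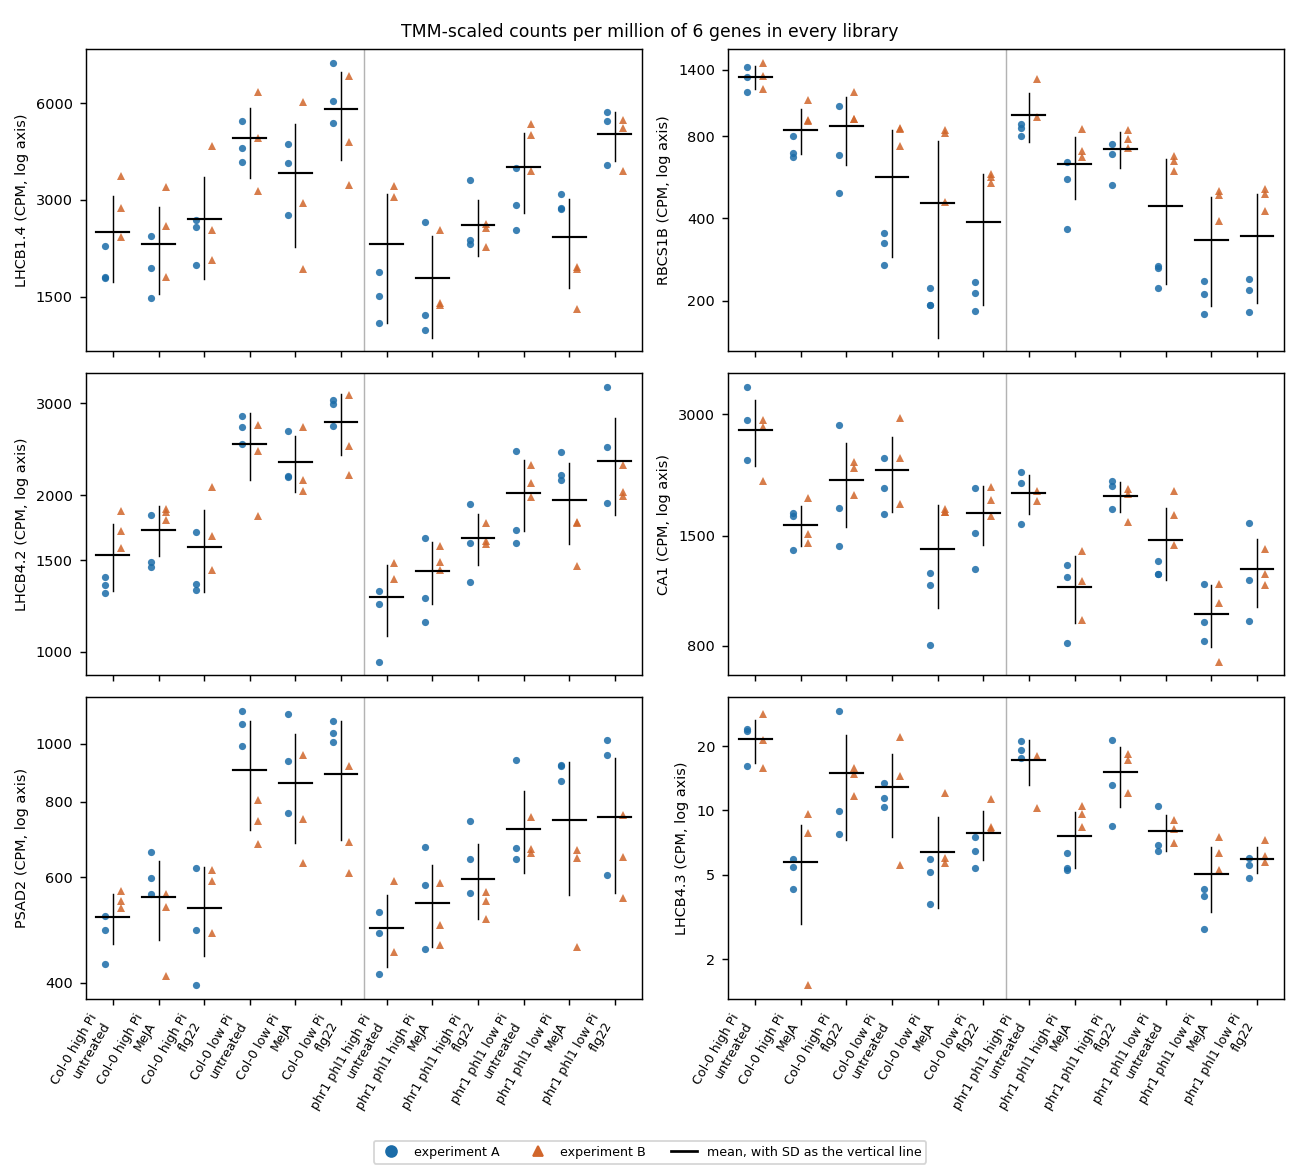
TMM-scaled CPM (log axis) of 6 genes in each library, by group and experiment, with mean and SD. LHCB1.4, LHCB4.2 and PSAD2 (left) are higher at low Pi than at high Pi in untreated Col-0, RBCS1B (top right) is lower, and CA1 and LHCB4.3 (right) are lower under MeJA at high Pi.

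The mean ratio of antenna to carbon fixation counts was higher at low Pi in the other 5 pairs of groups as well. In Col-0 it went from 2.03 to 2.87 with MeJA and from 1.86 to 3.14 with flg22. In the mutant it went from 1.66 to 2.72 untreated, from 2.01 to 2.81 with MeJA and from 1.94 to 3.2 with flg22. With MeJA the libraries overlapped, at 1.83 to 2.38 and 2.05 to 3.93 in Col-0 and 1.8 to 2.33 and 2.31 to 3.33 in the mutant. In the remaining pairs they did not. In experiment B the Col-0 mean with MeJA went from 2.04 to 2.36. The low Pi libraries there stood at 2.13 (B1), 2.89 (B2) and 2.05 (B3). RBCS1B made up 4.1% to 5.55% of the RBCS counts in the high Pi groups and 2.05% to 2.92% in the low Pi groups (group means). The 6 high Pi means thus lay above the 6 low Pi means. Within experiment A the low Pi libraries reached 2.13%, and the lowest high Pi library stood at 3.06%. Within experiment B these values were 4.21% and 4.3%. Libraries overlapped only between experiments, most low Pi libraries of B lying above the lowest high Pi library of A.

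**Figure D4:**
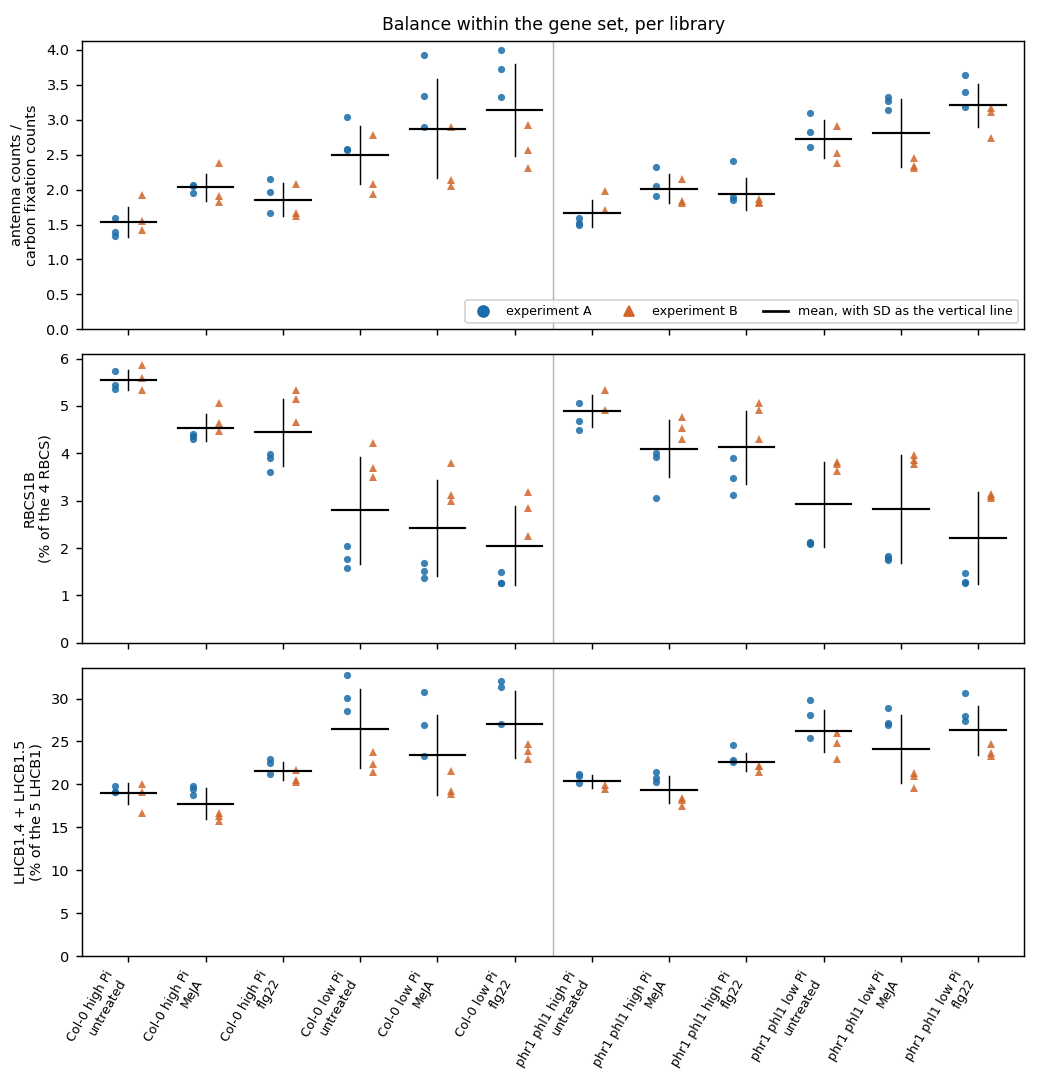
Ratio of antenna to carbon fixation counts (top), RBCS1B as % of the 4 RBCS genes (middle) and LHCB1.4 with LHCB1.5 as % of the 5 LHCB1 genes (bottom), 1 point per library, with mean and SD. In Col-0 low Pi untreated RBCS1B averaged 1.79% in experiment A and 3.8% in experiment B, against 5.51% and 5.59% at high Pi.

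The 2 experiments differed in the size of the low Pi changes. In untreated Col-0, RBCS1B changed by -2.02 in experiment A alone and by -0.73 in experiment B alone, a difference of 1.33 (adjusted p = 7.6e-05, edgeR with a mean for each group in each experiment, an analysis added after the data were seen). PSAD2 changed by 1.18 and 0.42 (difference -0.72, adjusted p = 0.038), and LHCB4.2 by 1.02 and 0.42, a difference that was not called (adjusted p = 0.094). Over all genes, 2862 of 18693 changes (15.3%) differed between the experiments in this comparison, against 2 of the 48. A fit to experiment A gave 14 rises and 5 falls among the 48, and a fit to experiment B 0 rises and 1 fall, that of RBCS1B. All genes gave the same picture: 33.8% passed in A alone and 0.559% in B alone.

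The members' median change in untreated Col-0 was above 0 in both experiments, at 0.27 in A and 0.16 in B. These medians do not give the direction of each gene. For RBCS1B the change also differed in Col-0 with MeJA (-1.79 in A, -0.46 in B, adjusted p = 2.2e-04), Col-0 with flg22 (-1.80 and -0.84, adjusted p = 0.0093), the untreated mutant (-1.73 and -0.82, adjusted p = 0.016) and the mutant with flg22 (-1.60 and -0.71, adjusted p = 0.035), in each case lower at low Pi in both. GAPB and RCA differed in Col-0 with MeJA (by 0.86 and 0.80) and in the untreated mutant (by 0.70 and 0.81), and PSBS in the untreated mutant (by 0.76). Of 960 tests of a gene in a comparison, these 11 passed, all of them low Pi changes. They were 3 of 48 in Col-0 with MeJA (background 6.48%), 1 in Col-0 with flg22 (7.76%), 4 in the untreated mutant (10.3%) and 1 in the mutant with flg22 (3%), so in no comparison was the members' share above that of all genes. In the mutant with MeJA 0 differed (background 2.76%).

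**Figure D5:**
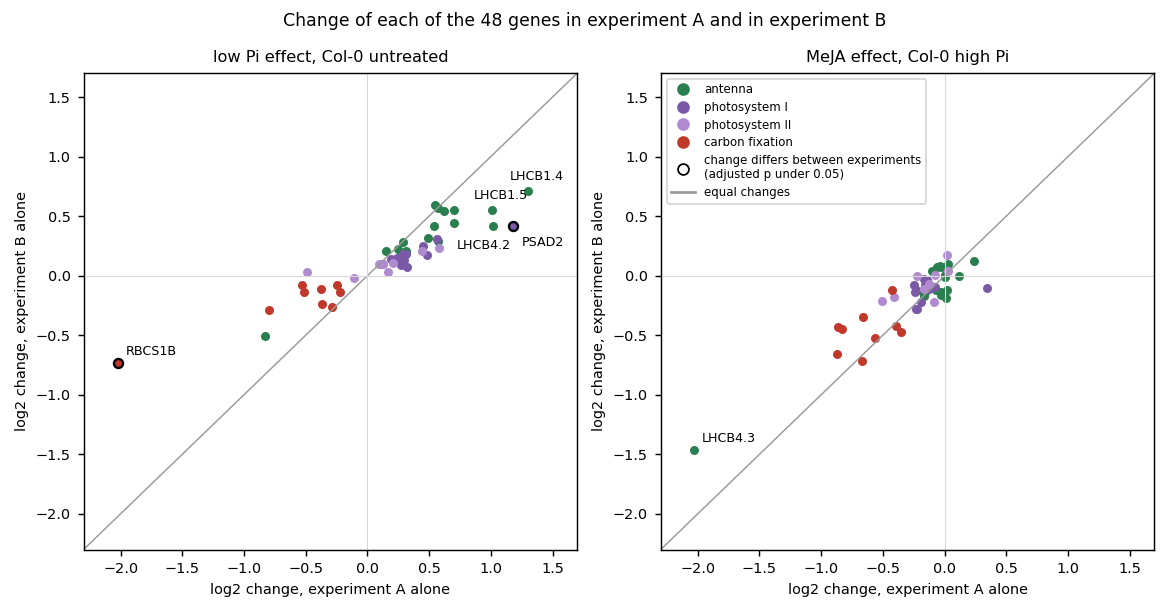
Change of each of the 48 genes on the log2 scale in experiment A alone (x) and experiment B alone (y), for low Pi in untreated Col-0 (left) and MeJA in Col-0 at high Pi (right), with the line of equal changes and ringed points where the change differed. RBCS1B lies at -2.02 and -0.73 and PSAD2 at 1.18 and 0.42 on the left, and LHCB4.3 at -2.03 and -1.46 on the right.

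MeJA was accompanied by lower transcripts of carbon fixation genes, with few calls in the antenna. LHCB4.3 was called lower as well, except in the mutant at low Pi. In Col-0 at high Pi, 0 of the 48 rose and 10 fell (background 13.2%, of which 7.71% rose and 5.52% fell), among them 3 of 4 RBCS genes and all 5 of the other carbon fixation genes. Of the antenna, 0 of 4 LHCA genes and 1 of 14 LHCB genes fell, and 0 of 12 photosystem I genes. The carbon fixation genes took 3.96% to 4.74% of all counts untreated and 2.74% to 3.52% with MeJA, without overlap, whereas the antenna took 5.91% to 8.39% and 5.36% to 7.68%.

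LHCB4.3 stood at 15.9 to 28.3 CPM untreated and 1.51 to 9.58 with MeJA (median 5.64), without overlap, and fell by 1.77 on the log2 scale (SE 0.29, adjusted p = 1.7e-06). Its counts are low, down to 1 read in a library. CA1 stood at 2048 to 3508 CPM and 1381 to 1863 (median 1595), again without overlap, and fell by 0.78 (SE 0.15, adjusted p = 7.0e-05). GAPB, at 2076 to 2660 and 1224 to 1651 (median 1437), fell by 0.70 (SE 0.13, adjusted p = 2.7e-05), and no library of 1 group reached the other. RBCS1B, at 669 to 1087 CPM with MeJA, fell by 0.70 (SE 0.21, adjusted p = 0.013), RBCS2B, at 1045 to 1455, by 0.65 (SE 0.13, adjusted p = 1.6e-04), and RBCS3B, at 2147 to 2883, by 0.51 (SE 0.14, adjusted p = 0.0057). RBCS1A stood at 11505 to 16022 CPM with MeJA, which overlaps the untreated range, and did not pass.

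RCA fell by 0.55, GAPA by 0.42, PRK (phosphoribulokinase, which makes the acceptor of carbon dioxide) by 0.41 and PSBS by 0.38. In 8 of the 48 genes each MeJA library was below each untreated one, as in 1.91% of all genes. All 10 genes were lower with MeJA in both experiments, and fits to each gave 8 falls in A (background 12.6%) and 5 in B (8.75%). GAPB changed by -0.67 in A and -0.72 in B, CA1 by -0.87 and -0.66, and LHCB4.3 by -2.03 and -1.46. RBCS1B changed by -0.86 and -0.43, RBCS2B by -0.83 and -0.45 and RBCS3B by -0.66 and -0.35, and these 3 passed in A and not in B. No member's MeJA change differed between the experiments in any of the 4 MeJA comparisons at the adjusted threshold (edgeR; background 2.11% and 0.0107% in Col-0 at high and low Pi, 0.952% and 0.0802% in the mutant).

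The other MeJA comparisons gave similar counts. In Col-0 at low Pi 0 rose and 9 fell (background 14.2%, of which 8.21% rose and 6% fell): LHCB4.3 fell by 1.09, CA1 by 0.66, GAPB by 0.50, RBCS2B by 0.49 and RCA by 0.46, with RBCS3B, PSBS, PRK and PSBQ1. In the mutant at high Pi 0 rose and 10 fell (background 18.2%, of which 9.92% rose and 8.31% fell): LHCB4.3 by 1.26, CA1 by 0.79, RBCS2B by 0.76, RBCS1B by 0.70 and RBCS3B by 0.64, with GAPB, PSAK, PSBS, PSBQ1 and PRK. In the mutant at low Pi 0 rose and 11 fell (background 17%, of which 9.97% rose and 7.03% fell), led by LHCB1.4 (0.69, adjusted p = 0.05), RBCS2B (0.62), CA1 (0.59), PSAK (0.44) and GAPB (0.43). There the experiments stood apart: 0 passed in A alone (background 9.13%) and 21 fell in B alone (background 16.3%), and LHCB1.4 changed by -0.059 in A and -1.41 in B. Summed with LHCB1.5 its change was -0.46 (adjusted p = 0.063). At an unadjusted p under 0.05 the change of 26 members differed between the experiments (background 9.3%), against 0 adjusted. In Col-0 at low Pi, 9 fell in A alone (background 11.3%) and 0 in B alone (10.5%), with medians of -0.34 and -0.066. The 9 calls became 5 without the libraries numbered A3 and 17 without B2. In the mutant the 10 calls at high Pi became 5 without A1 and 6 without A3 or B2, also 6 without the untreated library A1 or A3 alone, and the 11 at low Pi became 2, 3, 6 and 7 without B1, B2, B3 and A3.

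RBCS2B, GAPB, CA1, PRK and RBCS3B were called lower with MeJA in all 4 comparisons. LHCB4.3 was not called in the mutant at low Pi, at 6.48 to 10.5 CPM untreated and 2.78 to 7.48 with MeJA. The comparisons at high Pi and at low Pi use different libraries. Interactions of MeJA with phosphate were tested in each genotype and with genotype at each phosphate supply. None of the 48 passed in any of these 4 (background at most 0.016%), and none had an unadjusted p under 0.05 by edgeR (3.68% to 4.93% of all genes), nor an adjusted p under 0.05 by DESeq2 (at most 0.0588%). For LHCB4.3 the MeJA change was smaller at low Pi in Col-0 by 0.68, with bounds of -0.092 and 1.44.

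Changes with flg22 were few. In Col-0 at high Pi GAPB, at 2076 to 2660 CPM untreated and 1193 to 2161 with flg22 (median 1651), overlapping ranges, fell by 0.49 (SE 0.13, adjusted p = 0.041). It was the only 1 of 48 called, against 0.979% of all genes (0.663% rose and 0.316% fell), and 11 of 48 had an unadjusted p under 0.05, against 12.8%. The call was lost without the libraries numbered A2, A3, B1 or B2. RBCS1B, with 494 to 1158 CPM under flg22 (below each untreated library, at 1165 and above), changed by -0.66 ± 0.21 (adjusted p = 0.098). In Col-0 at low Pi 0 passed (background 4.45%; 7 unadjusted, against 17.2%, and 1 adjusted without the libraries numbered B1), in the mutant at high Pi 0 (background 4.62%; 12 unadjusted, against 18.7%, 1 by DESeq2, against 5.3%, and 1 without the untreated mutant library A1) and in the mutant at low Pi 0 (background 3.38%; 7 unadjusted, against 16.3%). In the mutant at high Pi the smallest p belonged to LHCB2.2, with a change of 0.45 ± 0.15 (adjusted p = 0.057). The interaction of flg22 with genotype at low Pi gave 0 of 48 by edgeR (background 0.016%) and DESeq2 (0.0374%), and 0 unadjusted (4.37%).

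Between the genotypes, the phr1 phl1 mutant had lower levels of some of these transcripts, with calls at low Pi untreated and with MeJA. At high Pi untreated, all 48 log2 differences between mutant and Col-0 were below 0 (median -0.26, range -0.56 to -0.086), yet 0 passed (background 0.0642%; 21 unadjusted, against 6.3% of all genes, 2 by DESeq2, against 0.171%, and 1 without the libraries numbered A1). GAPA and GAPB were nearest, at -0.52 ± 0.12 (adjusted p = 0.052) and -0.56 ± 0.14 (adjusted p = 0.12). These 48 differences share libraries and scaling, and the mutant group holds 5 libraries.

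At low Pi untreated, 7 genes were lower in the mutant and 0 higher (background 3.69%, of which 2.31% were higher and 1.39% lower). RBCS3B stood at 2656 to 3531 CPM in Col-0 (median 2921) and 1597 to 2281 in the mutant (median 2076), without overlap, a fall of 0.61 (SE 0.14, adjusted p = 0.0029). RBCS2B, at 1333 to 1898 and 842 to 1241, also without overlap, was lower by a log2 change of -0.56 (SE 0.13, adjusted p = 0.0048). CA1 (-0.58), RCA (-0.57), GAPA (-0.50), GAPB (-0.48) and LHCA2 (-0.43) were the other 5, so 6 of the 7 are carbon fixation genes. In experiment A alone 10 passed (background 5.59%), and in B alone 0 (0.596%). The 7 calls became 2 without the libraries numbered A2, 4 without B3 and 14 without B2.

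At low Pi with MeJA, 13 were lower and 0 higher (background 4.96%, of which 3.72% were higher and 1.24% lower), and 7 of these belong to the antenna. The largest differences were those of LHCB1.1 (-0.74 ± 0.17), RBCS2B (-0.69 ± 0.13), LHCB5 (-0.61 ± 0.14), LHCB1.3 (-0.61 ± 0.19) and LHCB3 (-0.60 ± 0.16). LHCB1.3 stood at 13709 to 37968 CPM in Col-0 and 12091 to 15142 in the mutant, and the Col-0 library B2 held 9.46% of its counts in LHCB genes, against at most 7.34% in the other 5. In experiment A alone 0 passed (background 2.16%) and in B alone 17 (4.62%). The 13 calls became 2 without the libraries numbered B2 and 5 without B1. At high Pi with MeJA 0 passed (background 0.134%; 26 unadjusted, against 9.36%; 47 of 48 below 0, median -0.28), at high Pi with flg22 0 (background 0.177%; 0 unadjusted, against 6.41%; median 0.009) and at low Pi with flg22 0 (background 0.476%; 14 unadjusted, against 8.11%; all 48 below 0, median -0.24).

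Genes of the same pathways outside the 48 were counted by lists, which were not tested as lists, and some counts lie near the share of all genes. Of 15 other Calvin cycle genes, 0 rose and 7 fell at low Pi in untreated Col-0 (median -0.29; of all genes 7.07% rose and 8.46% fell), including EMB3119 (-0.69 ± 0.16), FBA1, a chloroplast aldolase (-0.67 ± 0.19), and SBPASE, sedoheptulose-bisphosphatase (-0.46 ± 0.14). At low Pi in the mutant with flg22, 9 fell (median -0.38, against 5.53% of all genes that fell), led by FBA1 (-0.76 ± 0.19). The remaining low Pi comparisons are not described here for this list. Under MeJA in Col-0 at high Pi 6 fell and 0 rose (median -0.36; 5.52% of all genes fell and 7.71% rose), led by HCEF1, the chloroplast fructose-bisphosphatase (-0.53 ± 0.11). Of 13 genes of electron transport and ATP synthase, 1 rose and 1 fell at low Pi in untreated Col-0, PGRL1B (0.46 ± 0.13) and the ferredoxin FD1 (-0.53 ± 0.18), a count near the 15.5% called among all genes. In Col-0 at high Pi 3 of the 13 fell with MeJA, led by PETC (-0.37 ± 0.10), against 5.52% of all genes.

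For the lists in the next sentences, 7.07% of all genes rose and 8.46% fell at low Pi in untreated Col-0, and 6.65% and 5.63% in the untreated mutant. Among 14 chlorophyll synthesis genes, 2 rose and 2 fell at low Pi in untreated Col-0. The 2 that rose were PORA (2.92 ± 0.54, from 0.513 to 4.24 CPM) and PORB (1.32 ± 0.26, from 197 to 543 CPM), which encode light-dependent protochlorophyllide reductases. At 0.513 CPM PORA had few reads at high Pi, so the size of its rise is uncertain. CHLG (-0.57 ± 0.10) and CHLI1 (-0.42 ± 0.12) fell. In the untreated mutant PORA (2.24 ± 0.55) and PORB (1.45 ± 0.28) rose as well. Among 16 regulators, PIF4, a phytochrome-interacting factor, rose by 2.28 ± 0.25 in untreated Col-0 (from 15.4 to 75.4 CPM) and by 1.89 ± 0.26 in the mutant, and SIG5, a plastid sigma factor (-1.17 ± 0.40), and CGA1, a GATA factor of greening genes (-0.79 ± 0.20), fell in Col-0, where 2 of the 16 rose and 3 fell in all. Of 10 other antenna and photosystem genes, 0 rose and 1 fell there, the early light-induced gene ELIP2 (-1.41 ± 0.42), a count near the share of all genes. Of 7 chlorophyll breakdown genes 0 passed at low Pi in untreated Col-0, where PPH (0.32 ± 0.13) and NYC1 (0.37 ± 0.18) had the smallest p. PPH, pheophytinase, rose in all 4 MeJA comparisons, by 0.85 ± 0.14 in Col-0 at high Pi. Of all genes, 7.71% to 9.97% rose in these comparisons. PPH is 1 of the 7, and the rest of that list is not described here for MeJA.

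Markers of other cells moved with some of these comparisons. Of all genes, 7.07% rose and 8.46% fell at low Pi in untreated Col-0, and 6.65% and 5.63% in the untreated mutant. Between genotypes at low Pi untreated, 1.39% of all genes were lower in the mutant. In untreated Col-0 all 6 root hair markers rose at low Pi, their summed level going from 63.6 to 108 CPM at high Pi to 115 to 274 at low Pi, and 2 of 5 tested endodermis markers rose (summed 33.3 to 52.2 CPM and 48 to 81.1). In the untreated mutant 0 of 6 root hair markers passed at low Pi (summed 81.1 to 126 and 48.7 to 121), and between genotypes at low Pi untreated 5 of 6 were lower in the mutant. With MeJA 3 of 6 root hair markers rose in the mutant at high Pi and 4 of 6 at low Pi, against 1 and 0 in Col-0. Of all genes, 9.92% and 9.97% rose with MeJA in the mutant and 7.71% and 8.21% in Col-0. In Col-0 1 of 5 endodermis markers fell with MeJA at high Pi (median -0.49) and 3 of 5 at low Pi (median -0.72). The share of all genes that fell there was 5.52% and 6%. In the mutant 0 endodermis markers fell with MeJA, against 8.31% and 7.03% of all genes. Neither of the 2 tested root tip markers passed at low Pi in untreated Col-0 or with MeJA in Col-0 at high Pi. Stomatal lineage markers of the shoot summed to 44.7 to 93.5 CPM over all libraries, with 1 fall at low Pi in untreated Col-0 (EPFL9, -0.61 ± 0.21) and 0 of 6 called with MeJA at high Pi. No marker was at 0 in any group. The part of the cell makeup in the changes of the 48 genes was not tested.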

How the data were processed

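As deposited by the authors, the values are reads counted per gene, not normalized. Tools listed in the submitters' processing notes are HTSeq 0.6.1p1, TopHat2 2.1.1, cutadapt 1.3 and CASAVA 1.8, with the build TAIR10; per the labels' protocols, libraries were poly(A)-selected from 1000 ng of RNA and not stranded, so antisense and overlapping genes cannot be told apart. Counts were fitted in R 4.3.3 with edgeR 4.0.16 (filterByExpr with a minimum count of 10, TMM, robust quasi-likelihood, terms for group and experiment, 71 libraries, biological coefficient of variation 0.173), with Benjamini-Hochberg adjustment over 18693 genes and 0.05 as threshold. DESeq2 1.42.0 was an alternative. CPM values are TMM-scaled counts; shares are percent of a library's raw gene counts. On simulated data for low Pi in untreated Col-0 (18693 genes, 50 changed per fold), edgeR recovered 3, 22, 43 and 49 genes at 1.3-, 1.5-, 2.0- and 3.0-fold, with 5 false calls. The smaller changes here are thus often missed. Spread between replicates beyond counting limits the precision.

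Transcript lengths, coding identities and promoter windows came from RefSeq's TAIR10.1; the count table holds no coordinates. No libraries of a group agreed within sampling noise (chi-square per degree of freedom at least 1.73 in 175 pairs). The members and lists were chosen with earlier results of these data known. All 48 could be named, with up to 5 risers and 5 fallers per comparison in full, 16 genes always by group, and up to 3 of each related list. Alternatives were other scalings, filters, terms, tools and left-out libraries.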

Additional observations from a re-analysis of the deposited data

Results flagged for a closer look

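In 84 sets of libraries (a gene class's share of all counts in a group), 4 held a library far from the rest, where chance flags about 1 in 20. The 48 genes together took 17.9% of the counts in the highest Col-0 low Pi MeJA library, B2, against at most 13.4% in the other 5. LHCA genes took 0.922% in the lowest phr1 phl1 high Pi untreated library, LHCB genes 6.05% in the highest phr1 phl1 high Pi flg22 library and RBCS genes 1.98% in the highest phr1 phl1 high Pi MeJA library.

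The low Pi change differed between experiments A and B in 11 of 960 tests of a gene in a comparison, by edgeR at an adjusted p under 0.05. For RBCS1B the change in B minus that in A was 1.33 in untreated Col-0, 1.37 in Col-0 with MeJA, 0.98 in Col-0 with flg22, 0.95 in the untreated mutant and 0.91 in the mutant with flg22. For GAPB it was 0.86 in Col-0 with MeJA and 0.70 in the untreated mutant, and for RCA 0.80 and 0.81 in the same comparisons. PSBS gave 0.76 in the untreated mutant and PSAD2 -0.72 in untreated Col-0. Experiment A held a median of 4559964 counts per library and experiment B 3574282. The part of depth in these differences was not tested.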

How the results depend on the processing

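Counts of called members out of 48 are given. RLE scaling and scaling without the members moved no count by over 1.5 times, and under these and DESeq2 each of 143 called changes stayed past the threshold. Over all alternatives 1922 of 2428 repeats of these calls held, 505 kept their direction only and 1 reversed: RCA at low Pi in the untreated mutant changed by 0.04 in experiment B alone.

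Replicate labels A1 to B3 do not pair the samples: the deviations of same-labelled libraries had a median correlation of 0.0041 and 15.84% exceeded 0.1, against 16.23% for other labels. With the labels as a replicate block 130 of 143 calls remained, and only the counts for low Pi in Col-0 with MeJA (5) and flg22 in Col-0 at high Pi (0) moved by over 1.5 times.

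In experiment A alone the counts were 2 for flg22 in Col-0 at high Pi, 3 for flg22 in the mutant at high Pi and 5 at low Pi, 6 for MeJA in the mutant at high Pi and 0 at low Pi, 6 for low Pi in the mutant with MeJA, and 0 for genotype at low Pi with MeJA. In experiment B alone they were 5 for MeJA in Col-0 at high Pi and 0 at low Pi, 4 for MeJA in the mutant at high Pi and 21 at low Pi, and 0 for flg22 in Col-0 at high Pi. For low Pi they were 1, 0 and 3 in Col-0 untreated, with MeJA and with flg22, and 2, 1 and 0 in the mutant, and for genotype at low Pi untreated 0. Without an experiment term they were 6 for MeJA in the mutant at high Pi, 4 for low Pi in Col-0 with MeJA, 10 and 1 for low Pi in the mutant untreated and with MeJA, and 0 for flg22 in Col-0 at high Pi. That last count was also 0 with no filter and with the doubted library. DESeq2 gave 1 for flg22 in the mutant at high Pi and 2 for genotype at high Pi untreated. With the doubted library these were 1 and 5. Summed paralogs gave 1 for the latter and 1 for low Pi in the mutant with MeJA. With summed paralogs 135 of the 143 calls remained and 8 kept their direction only.

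Leaving out 1 replicate label or library at a time gave 8 to 11 and 5 to 17 for MeJA in Col-0 at high and low Pi, 5 to 11 and 2 to 13 in the mutant, 0 to 1 for flg22 (0 to 0 in the mutant at low Pi), 11 to 18, 1 to 9 and 12 to 27 for low Pi in Col-0 untreated, with MeJA and with flg22, and 5 to 19, 1 to 3 and 5 to 15 in the mutant. For genotype it gave 2 to 14 and 2 to 13 at low Pi untreated and with MeJA, 0 to 1 at high Pi untreated and 0 in the other 3, and 0 in the 6 interactions. The cause of these shifts was not tested. Most of these fits also held fewer samples, and the part of sample number was not tested either. Depth limits LHCB4.3 most, with down to 1 count in a library.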
